A study of Mus musculus with 2 samples.

Results

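Genes of 13 families whose proteins write, erase or read chemical marks on histones, or move nucleosomes, were compared between D16 and D351, a pair of clones of mouse mesoangioblasts. Members were the probe sets with exactly 1 annotated gene symbol beginning with Kmt, Setd, Kat and a digit, Kdm, Hdac, Smarc, Chd and a digit, Arid, Brd and a digit, Ing and a digit, Phf, Cbx or Prdm. Autosomal genes were kept, and genes on chromosome 4 between Acer2 and Svbp were to be left out, a step that removed 0 probe sets. The rule gave 106 probe sets for 69 genes, out of 12477 probe sets on the array and 7542 genes with a single symbol. A further 8 probe sets for 5 genes on the sex chromosomes matched the prefixes and were not members.

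Mesoangioblasts are progenitor cells associated with the wall of embryonic vessels. Both clones were derived from C57BL6 dorsal aorta at embryonic day 9.5, held for 5 days as an explant, and cloned by limiting dilution over mouse embryonic fibroblasts stopped with mitomycin C, in RPMI with 20% fetal calf serum. They were later expanded on gelatin without any treatment that the labels name. Each group is therefore 1 clone measured on 1 Affymetrix MG-U74B array (total RNA), and no difference below could be set against the spread between replicate cultures.

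DNA in the nucleus is wound on histones, and the marks on their tails help to set which genes can be transcribed. Writers such as methyltransferases (Kmt, Setd) and acetyltransferases (Kat) add marks, erasers such as demethylases (Kdm) and deacetylases (Hdac) remove them, and proteins with chromo, bromo or PHD domains (Cbx, Brd, Ing, Phf) bind them. ATP-driven remodellers (Smarc, Chd and some Arid proteins) slide or evict nucleosomes, and their subunit choice is known to differ between progenitor and muscle or heart cells. Classes were assigned here by gene prefix alone, so a few members stand outside the role of their class and are pointed out where they are described.

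The deposited signals summed to 653854 in D16 and 646285 in D351. A signal at or above a floor of 16.8, the middle value of both arrays together, was taken as measured, and lower signals were raised to it before a ratio was formed, so that where a single array lies under it the ratio is a bound. The floor was reached by 49.9% of the probe sets in D16 and 50.3% in D351. Of the 9 bacterial and phage hybridisation controls at the floor, 8 were lower in D351 (log2 ratios from -0.96 to 0.08). The actin controls gave log2 ratios of -0.11 at the 5' end and -0.38 at the 3' end, and the Gapdh controls gave -0.26 and -0.63.

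Few markers of the labelled cell type were on this array. Of 15 mesoangioblast and mural markers 4 were present, and 2 of them were measured. These were Cspg4, the NG2 proteoglycan of mural cells (83.3 in D16 and 26.1 in D351), and Myh11, the smooth muscle myosin heavy chain (36.8 and 35.6). Eng and Rgs5 were under the floor in both clones. Of 8 endothelial markers 2 were present, Flt1 (10.3 in D16 and 44.5 in D351) and Esam, which was under the floor in both clones. None of the 5 blood markers was on the array (0 of 5). The 5 of 20 markers of embryonic fibroblasts, the feeder cells, that were present were Aspn, Cd248, Col5a2, Prrx1 and Sfrp1. All were at least 2-fold higher in D351, as were 9.28% of the measured autosomal genes outside the chromosome 4 stretch. Their summed signal was 452.4 in D16 and 2248.6 in D351. Whether it came from feeder cells or from the clones was not tested. The 6 of 18 proliferation markers present were all at least 2-fold lower in D351, where the background was 8.05%. Their summed signal was 948.6 in D16 and 237.2 in D351. The part of either marker list in the chromatin gene differences was not tested.

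Of the 69 member genes, 56 were measured and 13 were under the floor in both clones. A gene was represented by its measured probe set with the highest mean signal. In D351, 8 of the 56 genes (14.3%) were at least 2-fold higher, where 9.28% of 4707 measured autosomal genes outside the chromosome 4 stretch were. In D16, 4 of the 56 (7.14%) were at least 2-fold higher, against a background of 8.05%. The share of members past 2-fold in either direction (21.4%) was thus close to that of all such genes (17.3%). The median log2 ratio of D351 over D16 was 0.06 for the members and -0.02 for all such genes, and the SD over genes was 0.79 and 0.82. Shares this near the background are not a result about the members as a whole. The comparison by class had been planned and did not follow from these shares. In RNA from a whole culture, fewer cells that express a gene and less of its RNA per cell cannot be told apart.

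**Figure D1:**
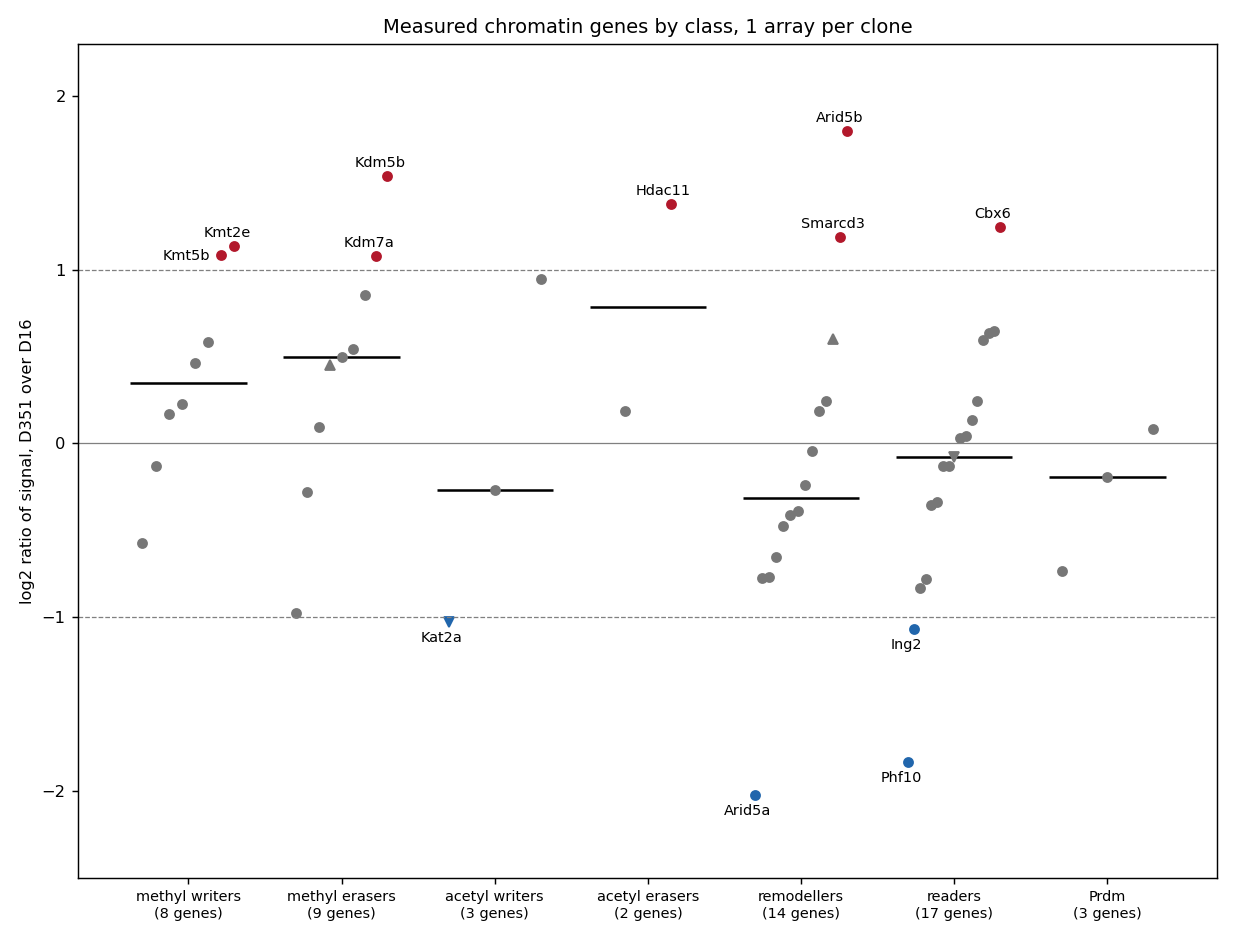
The log2 ratio of signal (D351 over D16) of each of the 56 measured member genes is plotted by class, with a black line at each class median, dashed lines at 2-fold, and triangles for ratios that are bounds. The 4 genes past 2-fold among methyl writers and methyl erasers all lie above 0, whereas remodellers and readers hold genes past 2-fold on both sides. Of all measured autosomal genes outside the chromosome 4 stretch, 9.28% passed 2-fold towards D351 and 8.05% towards D16.

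Genes with the histone methyltransferase prefixes Kmt and Setd lay mostly on the D351 side. Of these 11 genes 8 were measured, with a median log2 ratio of 0.35. Above 0 were 6 of the 8 (75%), and 48.5% of all measured autosomal genes outside the chromosome 4 stretch. Without these prefixes, Nsd2 and Suv39h2 of the wider list described below passed 2-fold towards D16. Other methyltransferases of that list lay on both sides under 2-fold on the probe set with the highest mean signal. For Nsd3 that probe set read 85.9 in D16 and 160.6 in D351. A dimmer Nsd3 probe set read 24.6 and 57.8 (2.35-fold), and another 65.5 and 62.8. Kmt2e stands among the writers by its prefix and encodes a SET and PHD domain protein that binds methylated H3K4. On chromosome 5 (probe set 106009_at) it read 39.9 in D16 and 87.6 in D351 (2.20-fold), but another Kmt2e probe set read 22.2 and 22.9, so its difference rests on 1 probe set. Kmt5b, which di- and trimethylates lysine 20 of histone H4 and lies on chromosome 19 (114401_at), read 57.3 in D16 and 121.8 in D351 (2.13-fold). A further Kmt5b probe set, at 22.5 and 45.7, also passed 2-fold, while the dimmest, at 11.9 and 17.0, gave a bound of 0.02 on the log2 scale. Members under 2-fold included Kmt2d, an H3K4 methyltransferase of enhancers (61.3 in D16 and 91.9 in D351), and its close relative Kmt2c (116.2 and 130.8).

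The Setd genes among the writers went both ways and none of the 4 measured ones passed 2-fold (0 of 4). Setd1a, the catalytic subunit of another H3K4 methyltransferase complex, read 90.1 in D16 and 124.3 in D351. Setd7, a monomethyltransferase, read 304.6 and 356.4 (log2 ratio 0.23), and Setd2, which trimethylates H3K36, read 249.8 and 228.1 (-0.13). Setdb2, an H3K9 methyltransferase, lay furthest to the D16 side of the class (73.3 and 49.3, log2 ratio -0.57). Setd3, an actin histidine methyltransferase despite its prefix, and Setd5 and Setd6 were under the floor in both clones.

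Histone demethylases with the prefix Kdm had the higher median among the methyl classes, at a log2 ratio of 0.50. Of 10 genes 9 were measured, with 7 of 9 (77.8%) above 0, where the background was 48.5%. Kdm5b, a demethylase of H3K4 on chromosome 1 (109135_at), read 42.8 in D16 and 124.4 in D351 (2.91-fold). Its other probe set was under the floor in both clones, at 2.8 and 5.4. Its paralogue Kdm5a read 20.8 and 37.6 (log2 ratio 0.85) on an _r probe set, an ending that marks a design under relaxed rules. Kdm7a, which acts on H3K9 and H3K27 and lies on chromosome 6 (163358_at), read 58.8 in D16 and 124.4 in D351 (2.12-fold), with another pair of probe sets under the floor in both clones. The Kdm7a ratio was 0.90, under 2-fold, once the median of all measured genes on chromosome 6 was taken off.

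The other demethylases stayed under 2-fold. Kdm2a, an H3K36 demethylase that binds unmethylated CpG, read 170.9 in D16 and 241.8 in D351 (log2 ratio 0.50), and a further probe set gave 0.61. Kdm2b, which brings a Polycomb complex to CpG islands, was close to equal (84.9 and 90.6). The H3K9 demethylases went both ways. Kdm4b read 19.8 and 28.9 (0.55), Kdm4c read 125.9 and 103.9 (-0.28), and Kdm3b read 39.3 and 20.0 (-0.97), just short of 2-fold towards D16. Kdm6b, a demethylase of H3K27, was under the floor in D16 (15.2) and at 23.0 in D351. Kdm1b was under the floor in both clones.

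Taking both methyl classes together, a grouping made after the values were seen, 13 of 17 genes (76.5%) lay above 0, while 48.5% of all measured autosomal genes outside the chromosome 4 stretch did. Their median log2 ratio was 0.46, a 1.38-fold higher signal in D351. Of the 17, 4 (23.5%) passed 2-fold towards D351 and 0 towards D16, where the background was 9.28% and 8.05%. After quantile normalization 1 gene (Kdm3b) passed towards D16. Towards D351, 3 passed with the median over probe sets or with chromosome medians taken off, and 3 of 13 with the floor at the 75th percentile. Counts this small do not set the methyl classes apart from the background. The counts cover the prefixes Kmt, Setd and Kdm alone. In the wider list below, the methyltransferases Nsd2 and Suv39h2 passed 2-fold towards D16, and Jmjd1c and Jmjd6 towards D351. Among the 17 are enzymes with opposite actions on the same residue. The H3K4 methyltransferases Kmt2c, Kmt2d and Setd1a and the H3K4 demethylases Kdm5a and Kdm5b were all above 0, from 0.17 for Kmt2c to 1.54 for Kdm5b. This residue was singled out with the values known, and enzymes of other residues lay on both sides. For H3K9, Setdb2 (-0.57), Kdm3b (-0.97) and Kdm4c (-0.28) were below 0, and Kdm4b (0.55) and Kdm7a (1.08) above. For H3K36, Setd2 gave -0.13 and Kdm2a 0.50. No mark was measured, and the signals do not tell whether any mark differed or in which direction.

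Acetyl writers and acetyl erasers were few. Kat2a, the GCN5 acetyltransferase of the SAGA complex on chromosome 11 (108380_at), read 34.3 in D16 and 6.6 in D351, under the floor, a difference of at least 2.04-fold towards D16. Kat6b, of the MORF complex, read 26.8 and 51.6 (log2 ratio 0.95), just short of 2-fold in the other direction. Kat14, of the ATAC complex, read 64.1 and 53.3 (-0.27), and Kat5, the TIP60 acetyltransferase, was under the floor in both clones. The 3 measured acetyl writers thus pointed both ways. Hdac11, the single class IV deacetylase, on chromosome 6 (110763_at), read 36.3 in D16 and 94.5 in D351 (2.60-fold). Hdac4, a class IIa deacetylase that represses muscle genes, read 26.8 and 30.5 on one probe set and was under the floor on the other. These were the 2 deacetylase genes on the array under the rule.

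**Figure D2:**
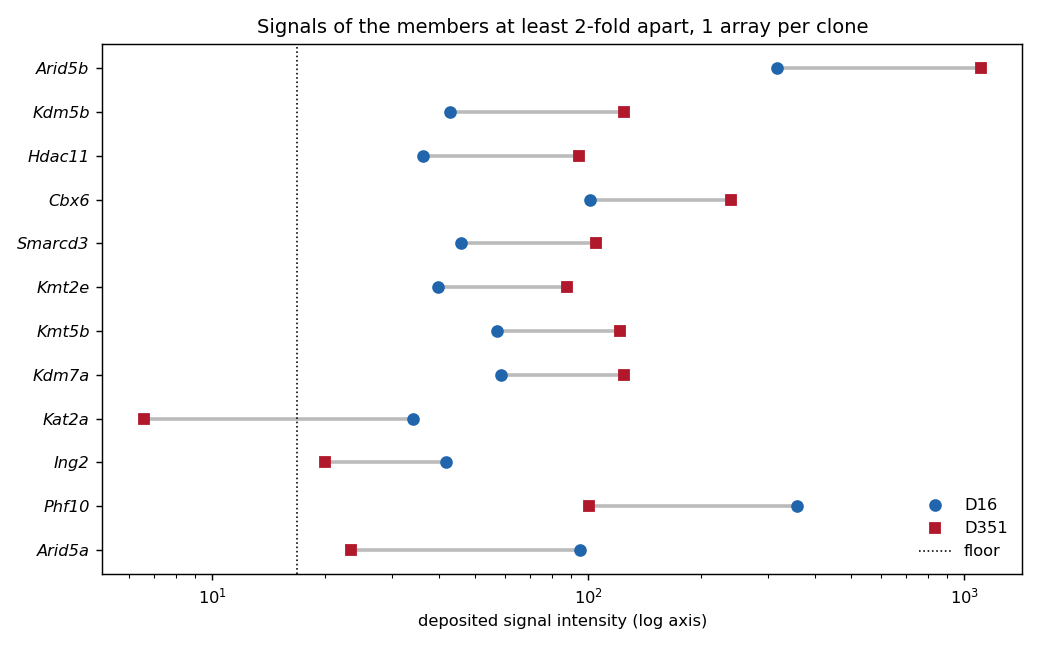
The deposited signal of the 12 members at least 2-fold apart is plotted for D16 (circles) and D351 (squares) on a log axis, with the floor of 16.8 as a dotted line. Kat2a in D351 is the single point left of the floor, and Arid5b (317.5 and 1104.1) and Arid5a (95.3 and 23.4) lie at opposite ends of the order.

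In the class of remodellers 14 of 19 genes were measured. Their median was -0.31 on the log2 scale, and 9 of the 14 were below 0, as were 2397 of the 4707 background genes. Of its 3 genes past 2-fold, Arid5a lay on that side, and Arid5b and Smarcd3 lay towards D351. Arid5b, a DNA-binding cofactor of the demethylase Phf2 on chromosome 10 (109730_at), read 317.5 in D16 and 1104.1 in D351 (3.48-fold), and was the member with the largest ratio towards D351. Arid5a, its paralogue, which also binds messenger RNA and lies on chromosome 1 (115166_at), read 95.3 in D16 and 23.4 in D351 (4.07-fold), the largest ratio towards D16. Both carry the ARID domain but are not subunits of a remodelling complex. Phf2 itself, a Jumonji demethylase that stands among the readers by its prefix, read 117.1 and 176.9 (log2 ratio 0.60).

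Subunits of the SWI/SNF complexes also differed among themselves. Smarcd3, the BAF60c subunit known from heart and skeletal muscle, on chromosome 5 (108488_at), read 45.9 in D16 and 104.6 in D351 (2.28-fold), with 30.3 and 40.7 on another probe set. Phf10, a PHD finger subunit of the PBAF form that is known from neural progenitors, was 3.57-fold lower in D351. It read 358.7 in D16 and 100.5 in D351 on one probe set (162888_at, chromosome 17) and 110.7 and 33.5 on the other. Arid2, which with Phf10 belongs to the PBAF form, read 172.2 and 204.4 (log2 ratio 0.25, with -0.16 on another probe set). Arid1b, of the canonical BAF form, read 90.6 and 53.0 (-0.77), with a bound of 0.01 on another probe set. The core subunits Smarcc1 (210.2 and 158.2) and Smarcc2 (225.2 and 256.7) gave -0.41 and 0.19, Brd9 of the non-canonical form gave 0.04, and the ATPase Smarca2, on an _f probe set shared by related transcripts, read 15.5 and 25.5 (at least 0.60). Over these 8 subunits, a set put together after the values were seen, the median was 0.12 and 1 gene passed 2-fold in each direction.

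The remaining remodellers lay on the D16 side without reaching 2-fold. Smarca5, the ATPase of ISWI complexes, read 209.3 in D16 and 132.9 in D351 (log2 ratio -0.66). Smarcal1, which anneals DNA strands at stalled replication forks, read 71.5 and 54.7 (-0.39). The 3 measured Chd genes were all below 0, with Chd1l at -0.77, Chd2 at -0.48 (236.2 and 169.6) and Chd4, the ATPase of the NuRD complex, at -0.24. Arid4b, of the Sin3 deacetylase complex, was close to equal (85.0 and 82.4). Chd1, Chd5, Chd7, Chd8 and Arid4a were under the floor in both clones.

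The sequences before the start sites are shown for the 2 members with the largest ratio in each direction, Arid5a and Phf10 towards D16 and Arid5b and Kdm5b towards D351. They are the 250 bases upstream of the RefSeq start in build GRCm38.p6, written 5' to 3' along the gene, with GC boxes (GGGCGG or its reverse complement CCGCCC) and CCAAT boxes (CCAAT or ATTGG) in capitals.
Arid5a (chr1:36307483-36307732, plus strand): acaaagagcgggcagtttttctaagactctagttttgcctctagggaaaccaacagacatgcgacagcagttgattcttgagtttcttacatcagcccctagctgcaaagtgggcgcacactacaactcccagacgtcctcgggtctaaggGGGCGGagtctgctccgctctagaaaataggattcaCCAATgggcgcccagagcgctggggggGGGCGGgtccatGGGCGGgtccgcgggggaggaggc
Phf10 (chr17:14961261-14961510, minus strand): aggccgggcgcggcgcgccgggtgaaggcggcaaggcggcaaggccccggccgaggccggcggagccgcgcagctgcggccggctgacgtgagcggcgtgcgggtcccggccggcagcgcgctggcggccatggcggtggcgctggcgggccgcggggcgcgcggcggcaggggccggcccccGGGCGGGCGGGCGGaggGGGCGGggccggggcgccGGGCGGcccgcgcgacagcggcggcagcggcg
Arid5b (chr10:68278727-68278976, minus strand): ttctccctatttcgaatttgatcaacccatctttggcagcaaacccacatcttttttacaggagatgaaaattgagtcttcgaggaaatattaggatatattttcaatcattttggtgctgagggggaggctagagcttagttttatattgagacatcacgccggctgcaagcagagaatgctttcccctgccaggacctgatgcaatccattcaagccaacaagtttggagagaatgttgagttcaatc
Kdm5b (chr1:134559928-134560177, plus strand): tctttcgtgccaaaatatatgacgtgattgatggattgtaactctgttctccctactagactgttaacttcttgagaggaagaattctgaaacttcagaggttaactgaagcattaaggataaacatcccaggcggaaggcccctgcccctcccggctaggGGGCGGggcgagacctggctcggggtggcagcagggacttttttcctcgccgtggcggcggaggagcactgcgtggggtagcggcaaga
The Arid5a window held 3 GC boxes and 1 CCAAT box, the Phf10 window 5 GC boxes, of which some overlap, and the Kdm5b window 1 GC box. In the Arid5b window neither was found, and 1 TATAAA (or TTTATA) was. Whether the windows of the paralogues Arid5a and Arid5b bear on their opposite ratios was not tested. Windows of the same length (the first listed per gene) were available for 11 of the 12 members past 2-fold. Of these 11, 9 held a GC box. The RefSeq table covers genes of every kind and can hold more than 1 window per gene, and 32.7% of its 32851 windows held a GC box. The share among members under 2-fold was not computed, so the count does not set the members past 2-fold apart. CCAAT was found in 3 of the 11 and in 33.8% of all windows, TATAAA in 1 and in 12.4%, and the E-box CACGTG in 1 and in 6.02%. A match is a description of letters and not a bound site.

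Readers of histone marks had 17 of 19 genes measured. Their median log2 ratio was -0.08, and 8 of the 17 (47.1%) were above 0, where the background was 48.5%. Besides Phf10, Ing2 passed 2-fold towards D16. Ing2 binds trimethylated H3K4 within a Sin3 deacetylase complex, and its probe set (107882_at, chromosome 8) read 41.9 in D16 and 20.0 in D351 (2.10-fold). Its relative Ing1, of the same kind of complex, read 282.8 and 164.5 (log2 ratio -0.78), while Ing3, a subunit of the TIP60 acetyltransferase complex, read 23.2 and 36.0 (0.63). The Ing family therefore lay on both sides.

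Chromodomain proteins of different repressive systems also stood on opposite sides. Cbx6, a Polycomb protein on chromosome 15 (106480_at), read 101.3 in D16 and 239.9 in D351 (2.37-fold) and 88.6 and 131.0 on another probe set, so that the median over both did not reach 2-fold. Cbx5, the heterochromatin protein HP1 alpha, read 98.6 and 55.3 (log2 ratio -0.83). Cbx7, another Polycomb protein, was under the floor in both clones. The bromodomain genes stayed close to equal. Brd1, a scaffold of acetyltransferase complexes, read 207.4 and 162.3 on an _f probe set, Brd3 read 25.3 and 25.9, and Brd8 read 21.8 and 19.9.

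Other PHD finger genes did not pass 2-fold. Phf21a, a subunit of the LSD1 and CoREST complex, read 121.3 in D16 and 190.4 in D351 (log2 ratio 0.65) and gave 0.50 on a further probe set. Phf20, of the NSL acetyltransferase complex, read 119.4 and 109.1 (-0.13), with -0.65 and 0.27 on its other probe sets. Phf20l1, a Tudor domain relative, read 87.3 and 103.6 (0.25), with at most -0.83 and at least 0.67 on other probe sets. Phf14 (0.14), Phf11b (-0.34) and Phf3 (at most -0.08) were dim, and Phf24 was under the floor in both clones. The Prdm genes, which encode zinc finger proteins with a PR domain related to SET, had a median of -0.19 over 3 measured genes. Prdm2 read 35.4 and 21.3 on one probe set (-0.73) but gave -0.23 and 0.77 on the others, Prdm15 read 29.4 and 25.7, Prdm4 read 41.8 and 44.2, and Prdm10 was under the floor in both clones.

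How far 1 probe set can be trusted was read from the 14 member genes with more than 1 measured probe set. Their brightest pair of ratios had the same sign in 9 of the 14, with an SD of the difference of 0.72, close to the 0.71 found over 1113 genes of the array. That SD corresponds to 0.50 on the log2 scale per probe set. Of the 5 genes past 2-fold with another measured probe set (Cbx6, Kmt2e, Kmt5b, Phf10 and Smarcd3), the second lay on the same side in 5 and passed 2-fold in 2, Kmt5b and Phf10. That of Kmt2e was close to equal, at a log2 ratio of 0.04. Over all genes of the array, the second lay on the same side in 193 of 219 such genes and passed 2-fold in 89. The other 7 genes past 2-fold rest on 1 measured probe set each. This spread covers probe design and neither the arrays nor the cultures.

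**Figure D3:**
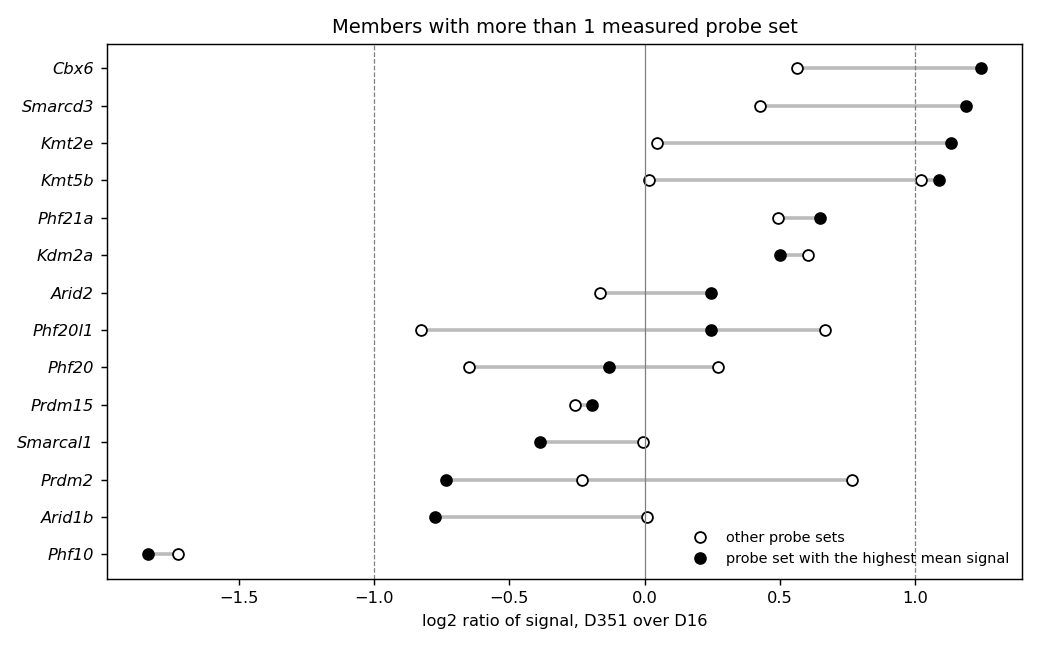
The log2 ratio (D351 over D16) is plotted for each measured probe set of the 14 members that have more than 1, filled for the one with the highest mean signal and open for the others, with dashed lines at 2-fold. Both Phf10 probe sets (-1.84 and -1.72) lie far below 0, whereas those of Prdm2 and Phf20l1 span 0.

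Chromatin genes outside these prefixes were taken from a list of 173 symbols of Polycomb, DNA methylation, acetylation, chaperone and further remodelling genes. Of 86 on the array under the same chromosome rule, 71 were measured. Of these 9 (12.7%) passed 2-fold towards D351 and 3 (4.23%) towards D16, where the background was 9.28% and 8.05%. The share in either direction (16.9%) was close to that of all such genes (17.3%), so the genes named next describe the list and do not set it apart. The median of the list was 0.11 on the log2 scale. Towards D351, Jmjd1c, a Jumonji relative of Kdm3b, read 37.4 in D16 and 110.7 in D351 (2.96-fold), and Phc3, a Polycomb subunit, read 85.4 and 252.3 (2.95-fold). Zmynd8, a reader known to recruit Kdm5 demethylases, was 2.46-fold higher, Jmjd6 at least 2.42-fold, L3mbtl3 2.34-fold, with a larger ratio of 2.77-fold on a dimmer probe set, and the coactivator Ncoa1 2.26-fold. Uhrf2, which binds modified cytosine, was 2.18-fold higher in D351, the CoREST protein Rcor3 2.11-fold and Msl2, of a histone H4 acetyltransferase complex, at least 2.08-fold. Towards D16, Nsd2, an H3K36 methyltransferase, read 180.6 in D16 and 83.5 in D351 (2.16-fold), and its 3 other measured probe sets also passed 2-fold, while a further one was under the floor in both clones. Meaf6, a subunit of acetyltransferase complexes, was 2.35-fold higher in D16, and Suv39h2, an H3K9 methyltransferase, at least 2.07-fold (34.7 against 2.1).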

How the data were processed

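Values are the signal intensity of each probe set on a linear scale, as deposited by the authors, with 1 array for each of the clones D16 and D351. Software and background correction are not given in the sources used here. Trimmed of 2% at each end, the columns had means of 39.8 and 39.7, so they were used as deposited. The 66 control probe sets were left out. Names came from GEO's platform annotation, and chromosomes and promoter windows from RefSeq tables of GRCm38.p6. The files name no build.

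Signals under the floor (16.8, the pooled 50th percentile) were raised to it, and the log2 ratio of D351 over D16 was taken. A gene passed the size rule at 2-fold or more. No p-value was computed, because each clone has 1 array, and that number limits the precision. Named were all measured members, and from the wider list the 10 genes with the largest ratios past 2-fold (Msl2 and Suv39h2 were added after their values were seen). The members, lists and rules were chosen with earlier results of these data known. The ratio was tested on simulated data with 200 changed probe sets, all well above the floor and with noise set in advance. That checks the calculation and not the spread in these data. Python 3.11.15, numpy 2.4.6, pandas 2.3.3 and matplotlib 3.10.9 were used.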

Additional observations from a re-analysis of the deposited data

How the results depend on the processing

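The count of members at least 2-fold higher in D351 (8) was 5 with the floor at the 75th percentile (53.5), 5 with the median over probe sets, 14 at 1.5-fold and 1 at 3-fold. The count at least 2-fold higher in D16 (4) was 1 with the floor at the 75th percentile, 11 at 1.5-fold and 2 at 3-fold. The median of all members was 0.17 with the floor at the 75th percentile. The acetyl writer median, over 3 genes, was -0.57 at a floor of 4.6 (the 25th percentile) and 0.34 among genes measured on both arrays. The mean of the remodellers was -0.13 against a median of -0.31. The cause was not tested. The medians of methyl writers (0.31 to 0.46) and methyl erasers (0.42 to 0.55) stayed above 0 under all 10 alternatives tried for each. Among those were median scaling, quantile normalization, a loess correction (span 0.3), plain _at probe sets and removal of chromosome medians.

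Of the 12 members past 2-fold, 0 changed sign. Those that fell under 2-fold were Arid5a (-0.83), Hdac11 (0.82), Kmt2e (0.71) and Smarcd3 (0.97) with the floor at the 75th percentile, Kmt2e (0.59), Smarcd3 (0.81) and Cbx6 (0.90) with the median over probe sets, and Kdm7a with chromosome medians taken off. With the lowest floor, Kat2a gave -2.38, and with the highest, Kat2a and Ing2 were not measured. No paired analysis was possible because each clone has 1 array. Signals near the floor limit what can be said of Ing2, Kat2a and Chd4, and of further members. Among these are Arid5a (23.4) and Kdm3b (20.0) in D351, and Kdm4b (19.8) and Kdm5a (20.8) in D16.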

Other observations

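Genes with the same prefixes on the sex chromosomes were left out of the comparison by the rule. Phf8, a demethylase with a PHD finger, read 23.3 in D16 and 32.6 in D351, and Kdm6a, which removes methyl groups from H3K27, read 17.2 and 27.5 on an _i probe set. Kdm5c, an H3K4 demethylase, read 98.1 and 94.2 on one probe set, and 16 and 34.2 on the other, where D16 was under the floor. Phf6 gave a log2 ratio of 0.18 on both of its probe sets. Both probe sets of the Y-linked Kdm5d were under the floor in each clone. Measured genes of the X chromosome had a median log2 ratio of 0.39 (140 genes).

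Some genes of the wider chromatin list, chosen after their values were seen, were lower in D351 or differed between probe sets. Atad2, a bromodomain ATPase known from cycling cells, read 32.6 in D16 and 19.4 in D351, and Hells, a remodeller needed for DNA methylation, read 26.4 and 0.6, which is under the floor. Msl1 read 116.3 and 100.1 on one probe set, 57.4 and 123.6 on the next, and 15.4 and 63.8 on another, while a further one was under the floor in both clones.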
